A study of Mus musculus with 7 samples.

Results

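Ptgds, Cpe and Cck encode secreted or secretory-pathway proteins: a prostaglandin D2 synthase of the lipocalin family, a carboxypeptidase that trims prohormones, and the precursor of the peptide cholecystokinin. The 3 genes were chosen by symbol because earlier results of these data placed them among the genes with the lowest KO means relative to WT. They are 3 of 19505 genes with a named probe set, each measured by 1 probe set (TC0200003151.mm.2 for Ptgds, TC0800002310.mm.2 for Cpe and TC0900003266.mm.2 for Cck). All 3 had log2 values below those of every WT array on every KO array, and on WT 1 and WT 2 they lay far above the negative control probe sets. Because this contrast chose them, their differences are given as a description, with no test.

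The samples were type 1 conventional dendritic cells (cDC1), the subset that cross-presents antigen to CD8 T cells, sorted from spleen and measured on Affymetrix whole-transcript arrays. The KO group holds 4 arrays of cells from CD11c-Cre; OPA1 flox mice, in which Cre made under the CD11c promoter acts on floxed Opa1 in dendritic cells and in other cells that express CD11c. The WT group holds 3 arrays of cells from WT mice. All mice were C57BL/6 and carried B16-OVA, a mouse melanoma line that expresses ovalbumin. The labels give no age and do not say whether WT mice carried either allele. They also leave unsaid whether each array had its own mouse, so any p-value measures array-to-array spread alone, part of which may be technical.

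Ptgds protein turns prostaglandin H2, made from arachidonic acid by the cyclooxygenases Ptgs1 and Ptgs2, into prostaglandin D2, and it also carries small lipophilic molecules such as retinoids. It is best known from the brain and meninges, and its gene is also active in melanocytes. Cholecystokinin is made as a long precursor in gut endocrine cells and neurons. Prohormone convertases cut such precursors after basic residues, carboxypeptidase E, the product of Cpe, removes the exposed lysines and arginines, and the amidating enzyme Pam finishes the carboxyl end. Cpe and Cck therefore act in 1 peptide pathway, and Ptgds in a lipid pathway.

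RefSeq promoter windows were given for Ptgds and Cck, 2 of the 3 genes, and the 250 bases before each start are shown because both genes stood high on the same arrays. They come from build GRCm38.p6, minus strand, at chr2:25469750-25469999 for Ptgds and chr9:121495695-121495944 for Cck. Capitals mark matches to the E-box letters CANNTG, which basic helix-loop-helix factors bind, and to TGCGTCA, the letters of the cyclic AMP responsive element known from the Cck promoter, each searched on both strands.
Ptgds: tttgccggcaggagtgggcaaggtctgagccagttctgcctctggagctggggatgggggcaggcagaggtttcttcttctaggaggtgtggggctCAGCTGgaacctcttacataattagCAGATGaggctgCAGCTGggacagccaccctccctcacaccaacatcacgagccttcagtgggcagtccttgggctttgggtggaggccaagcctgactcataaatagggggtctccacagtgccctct
Cck: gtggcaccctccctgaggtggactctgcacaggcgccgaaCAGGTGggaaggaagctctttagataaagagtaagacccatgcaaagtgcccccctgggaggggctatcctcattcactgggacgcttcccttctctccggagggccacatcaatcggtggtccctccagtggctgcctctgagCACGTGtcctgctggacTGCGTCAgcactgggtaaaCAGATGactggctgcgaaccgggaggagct

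Each window held 3 matches to CANNTG, letters that occur in 66.2% of the 32851 promoter windows searched. In Ptgds 2 of the 3 read CAGCTG, which occurs in 13.0% of windows. In Cck 1 of the 3 read CACGTG, which occurs in 6.02% of windows, at 66 to 61 bases before the start. The Cck window also held 1 match to TGCGTCA, at 49 to 43 bases before the start, and 1.75% of windows hold it. CACGTG and CATGTG are both E-box forms that the melanocyte factor MITF is known to bind. Neither window held CATGTG, which was present in 12.3% of all windows and in 9 of the 19 windows of a list of melanocyte lineage genes. CACGTG, the form in the Cck window, was present in 1 of these 19 (5.26%), near its share of all windows. These are matches of letters in a window and do not show binding.

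The arrays labelled WT 1 and WT 2 stood apart from the other 5. Across genes, which are not independent replicates, they correlated with each other at 0.982 and with the other 5 at 0.924 to 0.954, while the KO arrays and WT 3 correlated among themselves at 0.988 to 0.993. Xcr1 and Cd8a, which define splenic cDC1, read 12.70 to 12.79 and 11.95 to 12.12 on the KO arrays and 12.76 and 12.11 on WT 3. On WT 1 they read 12.12 and 7.89, and on WT 2 7.97 and 6.96, so the WT 2 array lacked the high level of both defining markers and WT 1 that of Cd8a. Opa1, the targeted gene, which encodes a mitochondrial inner membrane fusion GTPase, read 7.70, 7.10, 6.85 and 8.24 on KO 1 to 4, against 8.14, 8.80 and 9.15 on WT 1 to 3. The groups overlapped, since KO 4 lay above WT 1, and the difference of -1.22 did not pass correction (limma, adjusted p = 0.223; exact two-sided permutation p = 0.114, where the smallest the design allows is 0.0571). Where the probes lie relative to the deleted part was not analysed here, so this is not a full check of the labels, and groups are named as the arrays are labelled.

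Ptgds read 6.82, 7.17, 6.96 and 6.32 on KO 1 to 4, against 12.88, 12.91 and 9.24 on WT 1 to 3, on the log2 scale. The KO arrays lay within 0.85 log2 of each other, WT 1 and WT 2 were almost level, and WT 3 stood between them and the KO arrays, 2.07 above the highest KO array. The mean was 6.82 ± 0.36 (SD, n = 4) in KO and 11.68 ± 2.11 (SD, n = 3) in WT, a difference of -4.86 with a standard error of 0.83. The standard errors of the 3 genes are those of the limma fit, which assumes equal spread in both groups and borrows information from all genes. Since the spread was larger in WT, the smaller group, they understate the uncertainty. With WT 1 and WT 2 left out, the KO mean was 2.42 log2 below WT 3. No folds are given for the 3 genes, because their KO signals lay within the range of the negative controls described below, so the measured differences may understate those in RNA. In bulk samples, fewer cells of a type and less RNA per cell cannot be told apart, for this gene as for the others.

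Cpe read 7.47, 7.41, 6.47 and 6.92 on KO 1 to 4, against 12.77, 13.03 and 9.74 on WT 1 to 3. Again WT 1 and WT 2 were high, WT 3 was intermediate, and no KO array came within 2.27 log2 of WT 3. The KO mean was 7.07 ± 0.47 (SD, n = 4) and the WT mean 11.85 ± 1.83 (SD, n = 3), a difference of -4.78 with a standard error of 0.74. Relative to WT 3 alone the KO mean was 2.67 log2 lower.

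Cck read 8.70, 8.41, 8.13 and 7.92 on KO 1 to 4, against 12.27, 12.46 and 10.08 on WT 1 to 3. WT 1 and WT 2 were again high and WT 3 intermediate, with smaller gaps: WT 3 stood 1.38 above the highest KO array. The mean was 8.29 ± 0.34 (SD, n = 4) in KO and 11.60 ± 1.32 (SD, n = 3) in WT, a difference of -3.31 with a standard error of 0.54. Relative to WT 3 alone the KO mean was 1.79 log2 lower. For all 3 genes every KO array lay below every WT array, as it did in 5.92% of all genes. Since the contrast chose the genes, nothing is read from that share.

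**Figure D1:**
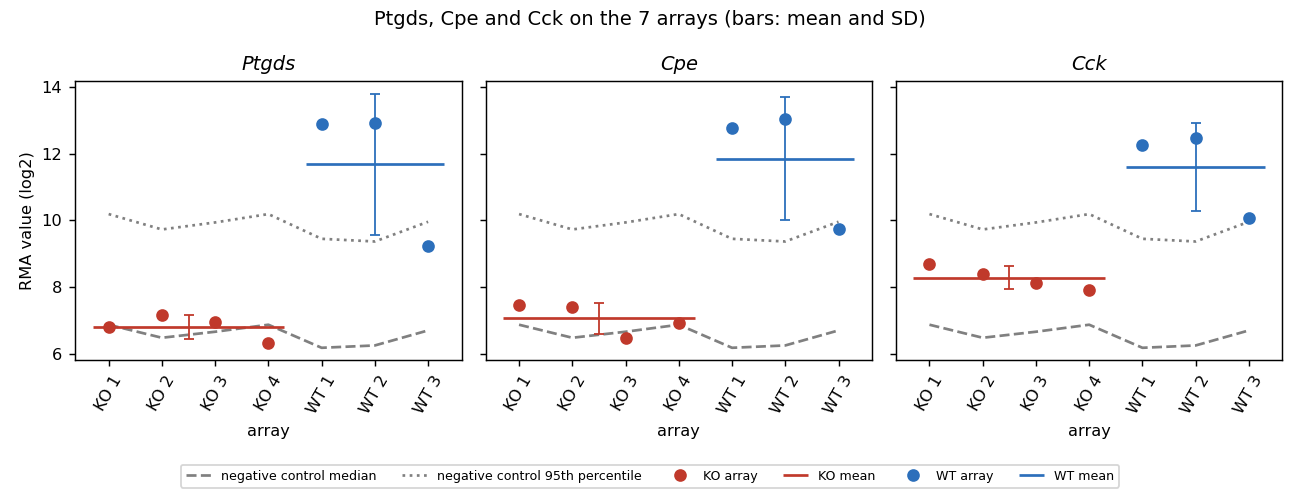
Values of Ptgds, Cpe and Cck (log2, vertical axis) on each array, KO arrays left and WT arrays right, with group means and SD bars and the median and 95th percentile of the negative control probe sets on each array. The KO arrays of Ptgds and Cpe sit near the control median, those of Cck 1.04 to 1.92 above it, WT 1 and WT 2 lie above the 95th percentile for all 3 genes, and WT 3 lies between.

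The array carries 5222 negative control probe sets, whose spread shows what signal arises without a matching transcript. Their medians were 6.49 to 6.88 on the KO arrays and 6.19 to 6.71 on the WT arrays, and their 95th percentiles 9.73 to 10.19 and 9.37 to 9.96. Ptgds stood -0.05, 0.67, 0.29 and -0.56 log2 from the control median on KO 1 to 4, with 39.3% to 63.0% of the control probe sets below it. On WT 1 to 3 it stood 6.69, 6.64 and 2.53 above the median, with 99.8%, 99.8% and 89.9% of control probe sets below it. Ptgds was thus at control level in KO.

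Cpe stood between -0.19 and 0.92 from the control median on the KO arrays, with 46.2% to 67.3% of control probe sets below it. On WT 1 to 3 it stood 6.58, 6.77 and 3.03 above the median, and on WT 3 93.6% of control probe sets were below it. Cck stood higher than Ptgds and Cpe on each KO array, at 1.82, 1.92, 1.47 and 1.04 above the median on KO 1 to 4. Between 68.4% and 83.5% of control probe sets were below it there, so it too lay within their range. On WT 1 to 3 it stood 6.08, 6.20 and 3.37 above the median, and on WT 3 it passed the 95th percentile, at 95.5% of control probe sets. Neither Ptgds nor Cpe passed the 95th percentile on WT 3, and none of the 3 genes did on any KO array.

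Among the KO arrays the 3 genes varied more than most genes: their SDs of 0.34 to 0.47 compare with a median of 0.142 over all genes in KO. KO 4 was the lowest KO array for Ptgds and Cck and KO 3 for Cpe. KO 1 was the highest for Cpe and Cck and KO 2 for Ptgds. Among the WT arrays the SDs were 1.32 to 2.11, against a median of 0.197 over all genes, because WT 3 lay 3.66, 3.17 and 2.29 log2 below the mean of WT 1 and WT 2 for Ptgds, Cpe and Cck.

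Likeness of pattern was measured as the root mean square difference, over the 7 arrays, of values centred on each gene's own mean, so that a small value means the same shape and size. Ptgds and Cpe were close to each other, at 0.38 log2, where Cpe was the 4th nearest gene to Ptgds and Ptgds the 3rd nearest to Cpe. Cck, with its smaller gaps, was 0.90 from Ptgds and 0.80 from Cpe. The median over all genes was 2.70 from Ptgds, 2.61 from Cpe and 1.83 from Cck. These distances are a description over 7 arrays, and they are governed by the height of WT 1 and WT 2.

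The nearest gene to both Ptgds and Cpe was Syt4, a synaptotagmin of secretory vesicles, at 0.28 and 0.31. Syt4 read 7.24, 7.50, 6.86 and 6.57 on KO 1 to 4, against 12.47, 12.77 and 9.08 on WT 1 to 3, the same steps as Ptgds. Next came Slc45a2, a melanosome transporter (0.32 from Ptgds, 0.43 from Cpe), and Tyr, tyrosinase, which starts melanin synthesis (0.37 and 0.34). The lists were completed by Gjc3, a gap junction connexin, for Ptgds (0.42) and Gpnmb, a melanosomal glycoprotein, for Cpe (0.46). Gjc3 read 5.69 to 6.46 on the KO arrays, against 11.61, 11.70 and 7.55 on WT 1 to 3.

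The nearest named genes to Cck were Fbln5, an elastic fibre protein (0.33), Mitf, the melanocyte transcription factor (0.34), Cyp2j6, a cytochrome P450 (0.36), Gsta4, a glutathione transferase (0.36), and Car6, a secreted carbonic anhydrase (0.36). Mitf read 8.74, 8.27, 8.26 and 8.02 on KO 1 to 4, against 12.42, 12.68 and 9.25 on WT 1 to 3. On WT 3 these genes stood 0.88 to 1.17 above their KO means, less than the 1.79 of Cck. Among the 50 nearest genes of each of Ptgds, Cpe and Cck, 11 belonged to the list of 20 melanocyte lineage genes. The list holds 20 of the 19505 genes. The ranking used the values that chose Ptgds, Cpe and Cck, so any gene high on WT 1 and WT 2 comes near, and the count is a description. Only 1 provisional gene symbol was among the 50 of Cpe and of Cck, and 0 among those of Ptgds.

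**Figure D2:**
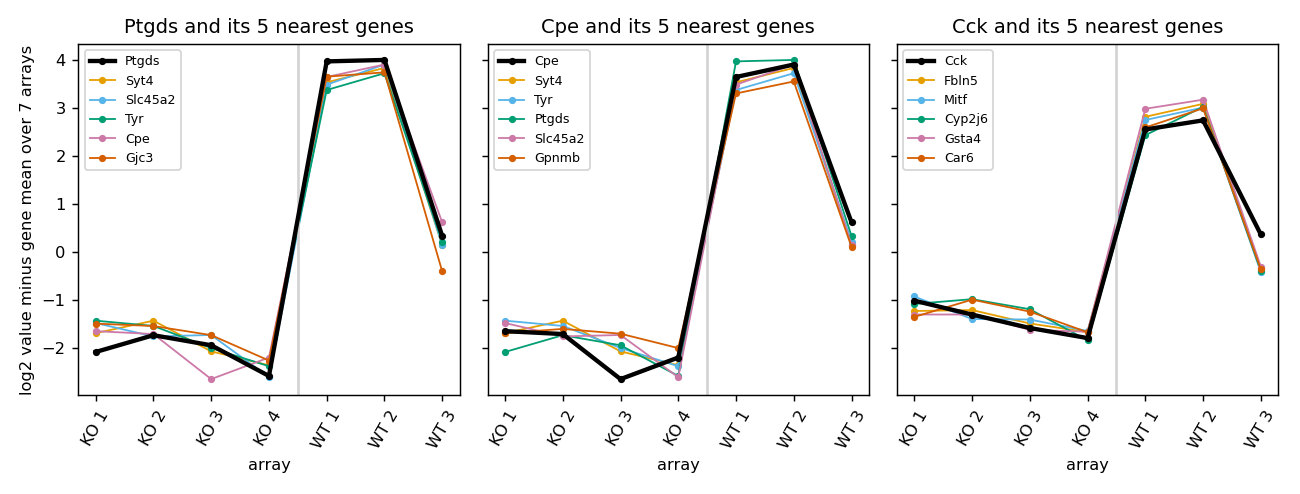
Log2 values, centred on each gene's mean over the 7 arrays (vertical axis), of Ptgds, Cpe and Cck (thick black) and the 5 named genes nearest to each, with KO arrays left of WT arrays. Ptgds, Cpe, Syt4, Tyr and Slc45a2 overlie each other, while Cck stands above its nearest genes on WT 3.

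The other genes of the pathways were taken from 8 lists holding 120 measured genes without Ptgds, Cpe and Cck. Over all 19505 genes none passed the adjusted threshold of 0.05 (limma, smallest adjusted p = 0.223; 0% called, against 3820 genes at an unadjusted p under 0.05), and so none of the 120 did. At an unadjusted p under 0.05 in limma there were 22 of the 120, or 18.3%, with 11 lower and 11 higher in KO, against 19.6% of all genes (10.6% lower, 8.98% higher). With each array set relative to its negative control median the split was 15 lower and 1 higher, where the median difference of all genes was -0.282, in place of 0.059. On that scale 17469 of the 19505 genes had a lower mean in KO, in place of 7812. An unadjusted p under 0.05 in limma was then found in 20.5% of all genes. The counts of each list below are to be read against these shares of all genes, with and without that scaling. On the scaled values the direction of calls was not counted over all genes. Since most genes had a lower mean there, the direction of list calls on that scale is not read as a result. Without WT 3, 24 of the 120 passed the adjusted threshold, 9 lower and 15 higher in KO, among 4931 of all genes. Without WT 1 and WT 2 together 0 passed, and 10 of the 120 (8.33%) had an unadjusted p under 0.05, against 5.92% of all genes. That setting has 1 WT array, which is assumed to vary as the KO arrays do.

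Prostaglandin D2 is also made by a second synthase. Hpgds, the hematopoietic prostaglandin D2 synthase, which makes the same product and is the form known from immune cells, read 8.17, 7.92, 8.31 and 8.66 on KO 1 to 4, against 9.89, 10.51 and 8.60 on WT 1 to 3. WT 1 and WT 2 stood above the KO arrays and WT 3 within them. The difference was -1.40 (limma, adjusted p = 0.223), and -0.33 against WT 3 alone. Ptgs2, the inducible cyclooxygenase upstream of both synthases, read 9.57, 8.14, 9.27 and 9.20 in KO, against 9.07, 11.26 and 9.96 in WT, with WT 1 the lowest WT array and inside the KO range.

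Of the 15 measured genes of prostaglandin synthesis and breakdown other than Ptgds, 5 had a lower and 10 a higher mean in KO, with a median difference of 0.12 (11 lower and 4 higher relative to the negative controls). At an unadjusted p under 0.05 in limma 1 was lower, Hpgds, and 3 were higher (2 and 1 relative to the negative controls). The 3 were Tbxas1, thromboxane synthase, at 11.46 ± 0.12 (SD, n = 4) in KO and 11.03 ± 0.18 (SD, n = 3) in WT, Prxl2b, a prostamide and prostaglandin F synthase, with a difference of 0.68, and Ptgis, prostacyclin synthase. Ptgis read 9.70 to 10.31 in KO, against 8.48, 8.20 and 10.22 on WT 1 to 3. It was thus lower on WT 1 and WT 2 only, and without them its difference turned to -0.15. Abcc4, a prostaglandin exporter, differed by 0.31, and by -0.02 without WT 1 and WT 2; it was also lower in KO relative to the negative controls.

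Prostaglandin D2 acts through Ptgdr and Ptgdr2. Ptgdr, the DP1 receptor, read 6.67 to 6.86 in KO and 6.40 to 6.61 in WT, near the negative control median, with a difference of 0.24 that turned negative relative to the negative controls. Ptgdr2, the DP2 receptor, read 8.10 ± 0.22 (SD, n = 4) in KO and 8.05 ± 0.18 (SD, n = 3) in WT, a difference smaller than either spread. Of the 10 prostanoid receptors 3 had a lower and 7 a higher mean in KO (7 and 3 relative to the negative controls), and 1 in each direction had an unadjusted p under 0.05 in limma (1 lower and 0 higher relative to the negative controls). Ptger4, a prostaglandin E2 receptor, read 10.22 to 10.66 in KO, against 11.47, 11.27 and 10.64 on WT 1 to 3. Ptger1, another, read 11.28 to 11.41 in KO, against 10.89, 10.20 and 11.13, with every KO array above every WT array, as in 7.85% of all genes. Ptger2, a further E2 receptor, read 9.51 to 9.76 in KO, against 8.61, 7.39 and 9.80 in WT; its difference of 1.0 became -0.20 against WT 3 alone. Ptgfr, the prostaglandin F receptor, differed by 0.27 and turned negative relative to the negative controls.

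Of 19 other measured lipocalins 3 had a lower and 16 a higher mean in KO (14 and 5 relative to the negative controls), with differences between -0.91 and 0.91. At an unadjusted p under 0.05 in limma there was 1 in each direction (1 lower and 0 higher relative to the negative controls). Apod, apolipoprotein D, read 6.41, 6.76, 6.49 and 6.60 in KO, against 7.65, 8.17 and 6.62 on WT 1 to 3, so that WT 3 was inside the KO range. Orm3, of the orosomucoid acute phase proteins, read 7.38 to 7.78 in KO, against 6.74, 5.90 and 7.47 in WT. Orm1, of the same group, differed by 0.80 and Apom, a lipoprotein component, by 0.40, with overlap between the groups in both.

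In the peptide pathway the genes that act on a cholecystokinin precursor were split. Pcsk1, a prohormone convertase of endocrine cells, read 5.08 to 5.30 in KO and 5.09 to 5.31 in WT, below the negative control median on every array. Scg5, the chaperone of a related convertase, read 5.79 ± 0.12 (SD, n = 4) in KO and 5.92 ± 0.17 (SD, n = 3) in WT, also below it. Pam, the amidating enzyme, differed more: it read 8.60, 9.0, 8.69 and 8.35 on KO 1 to 4, against 11.49, 11.86 and 9.19 on WT 1 to 3. Every KO array lay below every WT array, as in 5.92% of all genes, and the difference was -2.19 (limma, adjusted p = 0.223), or -0.53 against WT 3 alone. Pcsk2, Ptgs1 and Cckar were not analysed here.

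Of the 15 measured convertases and peptide-modifying enzymes 8 had a lower and 7 a higher mean in KO (14 and 1 relative to the negative controls), and 3 were lower and 0 higher at an unadjusted p under 0.05 in limma (4 and 0 on the scale of the negative controls). Beside Pam these were Ctsl, cathepsin L, which also cuts prohormones, and Qpct, which cyclises amino-terminal glutamine. Ctsl read 7.77 to 8.30 in KO, against 8.66, 9.76 and 8.13 in WT, and Qpct read 8.08 ± 0.22 (SD, n = 4) in KO and 8.43 ± 0.10 (SD, n = 3) in WT. Tpst1, a tyrosine sulfotransferase, the kind of enzyme that sulfates cholecystokinin, differed by -0.23. Pcsk6 differed by 0.27, and turned negative relative to the negative controls.

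Among 14 other metallocarboxypeptidases 5 had a lower and 9 a higher mean in KO (11 and 3 relative to the negative controls). At an unadjusted p under 0.05 in limma 2 were lower and 4 higher, where 10.6% and 8.98% of all genes were. Relative to the negative controls 2 were lower and 0 higher. Cpd, the carboxypeptidase of the trans-Golgi network whose activity overlaps that of Cpe, read 9.22, 8.20, 8.90 and 8.64 in KO, against 9.22, 9.62 and 9.13 in WT, with KO 1 level with WT 1. Aebp1, a carboxypeptidase-like extracellular matrix protein, read 6.47 to 7.23 in KO, against 10.72, 10.85 and 7.17 on WT 1 to 3. Aebp1 shared the height of WT 1 and WT 2 with Cpe but not that of WT 3, which lay inside the KO range. The 4 higher genes differed little, by 0.32 for Cpxm2, 0.40 for Cpxm1 and 0.41 for Cpa1 among those named, and Cpxm2 turned negative relative to the negative controls.

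Granins fill the dense-core vesicles in which endocrine cells store peptide hormones. Of 21 granins and dense-core vesicle proteins 5 had a lower and 16 a higher mean in KO (20 and 1 relative to the negative controls), and 3 were lower and 1 higher at an unadjusted p under 0.05 in limma (4 and 0 on the scale of the negative controls). The 3 lower genes act in vesicle docking and fusion: Syt4, described above, with a difference of -4.40, Sytl2 and Rab27a, a synaptotagmin-like protein and the small GTPase to which such proteins bind. Sytl2 read 6.79 to 7.62 in KO, against 9.54, 10.47 and 7.38 in WT, and Rab27a read 9.12 to 9.69 in KO, against 11.11, 11.54 and 9.61 in WT. For both, WT 3 lay inside the KO range, while for Syt4 it stood 1.57 above the highest KO array. Slc18a2, a vesicular monoamine transporter, was the higher gene, by 0.41. The granins of the list did not share the low KO values of Syt4. Chga, Chgb, Scg2, Scg3 and Vgf differed by 0.04, 0.18, 0.12, 0.15 and 0.02.

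Of 25 other peptide hormones and neuropeptides 5 had a lower and 20 a higher mean in KO (25 and 0 relative to the negative controls), with differences between -0.21 and 0.32, and 0 reached an unadjusted p under 0.05 in limma (1 lower relative to the negative controls). Gast, which encodes gastrin, the closest relative of cholecystokinin, read 7.20 to 7.41 in KO and 7.44 to 7.71 in WT, a difference of -0.21. Ghrl, the ghrelin gene, differed by 0.32, Nppa, for atrial natriuretic peptide, by 0.26, Adcyap1 by 0.19 and Gcg, for glucagon, by 0.13; these 4 turned negative relative to the negative controls. Cckbr, the receptor of cholecystokinin and gastrin, read 8.19 to 8.38 in KO and 7.83 to 8.12 in WT, a difference of 0.29 that also turned negative.

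**Figure D3:**
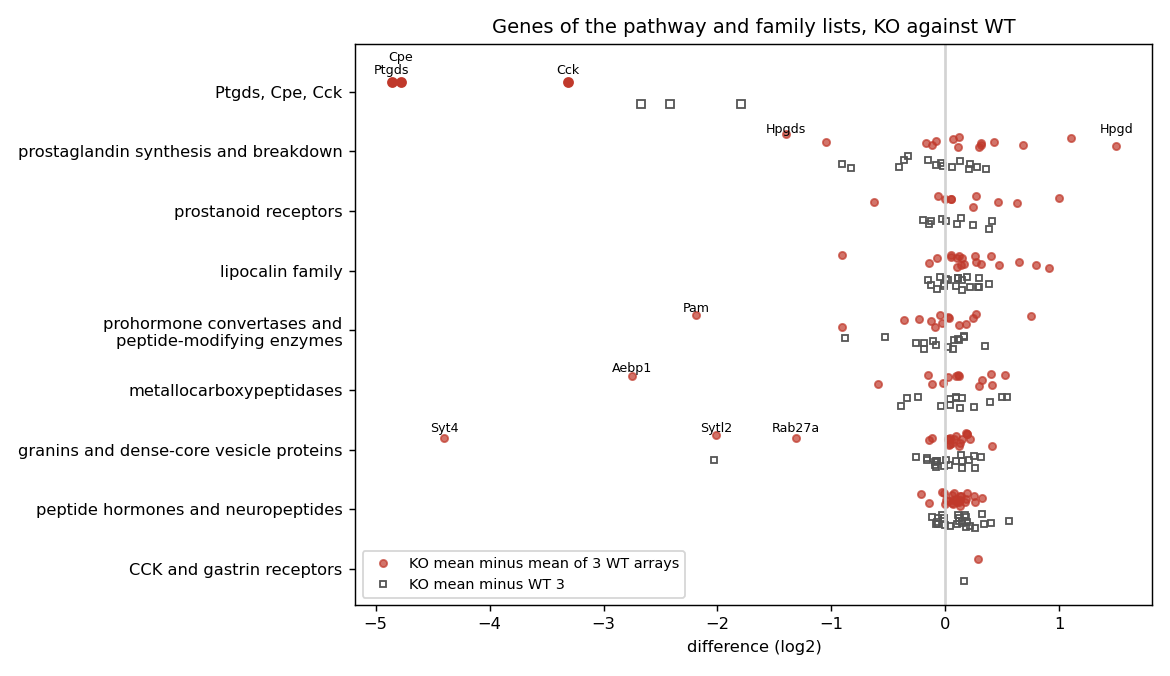
Differences in log2 units (horizontal axis) of Ptgds, Cpe and Cck and of each measured gene of the 8 lists (rows); filled circles are the KO mean minus the mean of 3 WT arrays and open squares the KO mean minus WT 3 alone. Syt4 is the list gene whose open square lies nearest to those of Ptgds, Cpe and Cck, at -2.03, while Pam, Aebp1, Sytl2, Rab27a and Hpgds lie within 0.53 of 0 on that measure.

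Markers of other cell types were set beside the 3 genes, and their part in the result was not tested. Of the list of 20 melanocyte lineage genes 19 had a lower mean in KO, 18 with every KO array below every WT array, against 40.1% and 5.92% of all genes. Its mean, relative to the KO mean, was 0.22, 0.11, -0.01 and -0.32 on KO 1 to 4, against 3.34, 3.65 and 1.08 on WT 1 to 3, so WT 1 and WT 2 stood highest, as for Ptgds, Cpe and Cck. On WT 3 the list was uneven: 7 of its genes stood 1.85 to 2.49 above their KO means and the other 13 stood 0.03 to 1.0 above, with a median over the 20 of 0.8. The log2 of its summed signal was 13.56 to 13.75 in KO and 14.38 to 16.59 in WT. Kit alone, a gene of the list that dendritic cells also express, read 13.03 to 13.07 in KO and so made up most of the sum there. By group mean 1 of the 20, Ednrb, was at or under the negative control median in KO, and 0 were in WT. Tyr and Gpr143 were barely above it in KO, with means of 6.74 and 6.79 against a control median of 6.73.

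The 3 defining genes of that list were among its 7 highest on WT 3. Pmel, which forms the fibrils of melanosomes, read 9.75, 9.68, 9.11 and 7.99 on KO 1 to 4, against 13.51, 13.59 and 11.62 on WT 1 to 3. Tyr read 7.15, 7.04, 6.58 and 6.20, against 11.96, 12.31 and 8.80. On KO 1 to 4 it stood 0.28, 0.55, -0.09 and -0.68 from the negative control median, at control level like Ptgds. Dct, a melanin synthesis enzyme, read 8.89, 8.45, 8.22 and 7.58, against 13.09, 13.43 and 10.72. On KO 4, the lowest KO array of Ptgds and Cck, Pmel, Tyr and Dct were also lowest. For Tyr and Ptgds the order of the KO arrays lies within control level and is not read as a match. Cpe was lowest on KO 3. Other genes of the list, named after their values were seen, differed from the 3: Kit, a receptor that dendritic cells also express, read 13.03 to 13.07 in KO, against 12.97, 12.33 and 13.07 in WT, and Oca2, a melanosome transporter, read 6.84 to 7.26 in KO, against 8.24, 8.83 and 7.12 in WT.

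The cDC1 list ran the other way on WT 1 and WT 2. Of its 18 genes 0 had a lower mean in KO, and its mean relative to the KO mean was -0.79, -2.32 and -0.02 on WT 1 to 3. Genes shared by leukocytes stood at -0.37, -0.51 and 0.00 on WT 1 to 3, with Ptprc, which encodes CD45, at 13.05 ± 0.06 (SD, n = 4) in KO and 12.76 ± 0.25 (SD, n = 3) in WT. On WT 3 the cDC1 and leukocyte lists were level with KO, while Ptgds, Cpe and Cck were 1.79 to 2.67 log2 above it.

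Further lists covered other cells, and where a list was mixed, genes were added after their values were seen. The neuroendocrine and neural list stood 0.66, 0.79 and 0.03 above the KO mean on WT 1 to 3, with 6 of 9 genes lower in KO. Syp, the synaptic vesicle protein that defines it, read 7.21 ± 0.14 (SD, n = 4) in KO and 7.13 ± 0.17 (SD, n = 3) in WT. Uchl1, Ncam1 and Tubb3, of neurons, differed by -1.34, -1.51 and -1.29, and Tubb3 read 7.97 to 8.28 in KO, against 9.96, 10.10 and 8.31 in WT. These 3 were high on WT 1 and WT 2 and stood -0.10 to 0.14 from the KO mean on WT 3. The rest of the list differed less: Stmn2 was higher in KO, by 0.27. Elavl4, Gap43, Insm1 and Eno2 differed by 0.01, -0.01, -0.13 and -0.53. The fibroblast and endothelial list stood at -0.12, 0.19 and -0.05, with Col1a1 at 9.25 ± 0.08 in KO and 9.22 ± 0.14 in WT. Its endothelial genes went both ways: Kdr, a vascular growth factor receptor, read 7.38 to 8.46 in KO, against 10.07, 10.97 and 8.49 in WT, and Pecam1, an adhesion molecule, read 10.20 to 10.67 in KO, against 7.95, 8.33 and 10.11 in WT. The plasmacytoid dendritic cell list stood at -0.51, -0.56 and 0.32, with Siglech at 8.16 to 9.14 in KO, against 7.75, 7.61 and 9.34 in WT. It was mixed as well, with 3 of 9 genes lower in KO. Bst2, of this list, went the other way on WT 1 and WT 2, at 11.26 to 11.73 in KO, against 12.65, 12.64 and 11.72 in WT.

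The monocyte and macrophage list stood at 0.08, 1.26 and 0.65 on WT 1 to 3, with 7 of 10 genes lower in KO. Csf1r, its defining receptor, read 9.21 to 9.77 in KO, against 7.43, 10.77 and 9.99 in WT. Mertk, a receptor for the uptake of dying cells, read 6.01 to 7.07 in KO, against 10.07, 10.67 and 7.76 in WT, and Fcgr1, an Fc receptor, read 8.05 to 8.26 in KO, against 9.11, 11.36 and 8.69 in WT. Vcam1 and Spic, of the same list, had higher means in KO, by 0.36 and 0.25. Vcam1 read 7.89 to 8.84 in KO, against 7.33, 7.27 and 9.31 in WT. Mast cell and basophil genes stood at -0.12, -0.11 and -0.10, and 6 of 10 were at or under the negative control median in either group. The log2 of the summed signal of the 5 lists of other cells was 10.22 to 13.18 in KO and 10.16 to 13.70 in WT. For the monocyte and macrophage list it was 11.96 to 12.41 in KO and 12.51 to 13.70 in WT. For the plasmacytoid dendritic cell list it was 13.04 to 13.18 in KO and 13.32 to 13.45 in WT. In the rest of the 5 lists the groups overlapped.

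**Figure D4:**
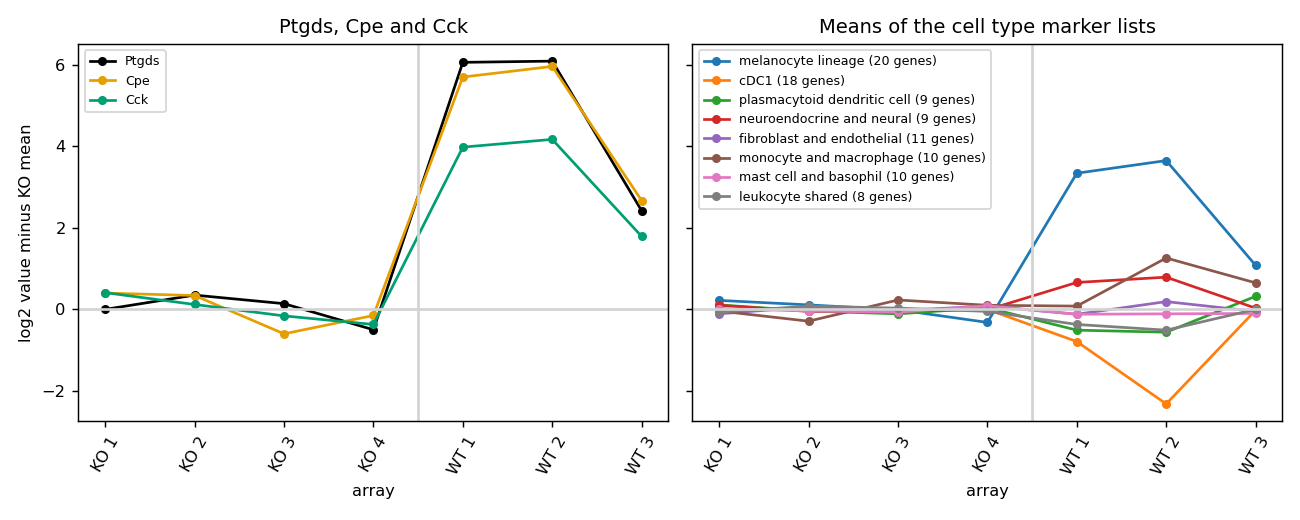
Log2 values minus the KO mean (vertical axis) of Ptgds, Cpe and Cck (left panel) and of the means of 8 cell type marker lists (right panel) on each array, KO arrays left of WT arrays. The mean of the melanocyte list stands at 3.34, 3.65 and 1.08 on WT 1 to 3, and the cDC1 list is low on WT 1 and WT 2.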

How the data were processed

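The authors deposited log2 values for 28846 probe sets on 7 arrays, and the submitters' processing notes name RMA and Affymetrix Expression Console 1.1. RMA corrects background, normalizes by quantiles and summarises probes, which compresses low signals, so differences of dim genes are understated. Which arrays were normalized together, and the genome build, are not given in the sources used here. Of 22206 transcript probe sets 19572 had 1 gene symbol, 0 several and 2634 none. All 19572 matched RefSeq by gene identifier. The probe set with the highest mean stood for its symbol, which left 19505 genes. The KO minus WT contrast was fitted in limma 3.58.1 (R 4.3.3; lmFit, then eBayes), with Benjamini-Hochberg adjustment over all genes at a threshold of 0.05. The limma step was tested on simulated data. The number of arrays limits precision.

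The 3 genes and all lists were chosen with earlier results of these data known. Named genes were the 3, Opa1, fixed partners in each pathway, up to 4 further genes of each list by smallest p, the 5 nearest patterns of each and 1 or more defining genes of each marker list. Of 133 listed pathway genes 120 were measured. Alternatives were leaving out each array, WT 1 and WT 2 together, the replicate number as a block, other scalings, a dim filter (mean under the median of named genes), trended and robust variance, and every named probe set.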

Additional observations from a re-analysis of the deposited data

How the results depend on the processing

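With each array left out in turn, the difference was -6.08 to -4.24 for Ptgds, -5.84 to -4.19 for Cpe, -4.08 to -2.88 for Cck and -1.5 to -1.0 for Opa1, and it kept its sign. Under the same settings 0 to 4931 of all genes passed the adjusted threshold in limma, and 12 to 34 of the 120 list genes had an unadjusted p under 0.05 (1616 to 7189 of all genes), against 0 and 22 with all arrays. Of these settings only leaving out WT 3 gave any adjusted call. Without WT 1 and WT 2 together the differences were -2.42 for Ptgds, -2.67 for Cpe and -1.79 for Cck, and 10 list genes (8.33%) had an unadjusted p under 0.05, against 5.92% of all genes; the spread there comes from the KO arrays alone. With dim probe sets left out 13 of 45 list genes did (28.9%), against 22.8% of all genes, and Opa1 was not tested. For the 3 genes median centring, quantile normalization again and scaling to the negative controls moved the difference by less than the spread between arrays; the dim filter, the variance model and every named probe set cannot change a difference of means. With the replicate block it was -4.69, -4.73 and -3.19 for Ptgds, Cpe and Cck, the values without KO 4, which has no WT partner, and 0 genes were called (2488 at an unadjusted p under 0.05, limma). Same-numbered arrays share only a number: their deviations from the group means correlated at -0.038, 0.046 and -0.017, and no WT array correlated best with its own number. Of 58 other named genes, 64 of 845 values moved by more than 1 SD and 32 turned sign, 16 of them with scaling to the negative controls and 8 without WT 1 and WT 2. Arrays have no read depth, and signal over the negative controls limits the differences of Ptgds and Cpe most, and also that of Cck.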

Other observations

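Some list genes were low on WT 1 and WT 2, where Ptgds, Cpe and Cck were high. They were chosen after their values were seen. Hpgd, which inactivates prostaglandins by oxidation, read 9.85, 8.67, 9.99 and 10.06 on KO 1 to 4, against 6.73, 7.22 and 10.47 on WT 1 to 3. Pcsk5, a convertase of many cell types, read 8.07, 8.19, 8.17 and 8.56 in KO, against 6.70, 6.66 and 9.13 in WT. Cpq, a lysosomal and secreted carboxypeptidase, read 9.94, 10.02, 10.18 and 10.13 in KO, against 9.27, 9.06 and 10.30 in WT. In all 3 genes WT 3 was the highest of the 7 arrays. None passed the adjusted threshold over all genes with all arrays in the fit (limma), where the differences were 1.5 for Hpgd, 0.75 for Pcsk5 and 0.52 for Cpq. Without WT 3 the differences were 2.67, 1.57 and 0.90. That setting compares KO with WT 1 and WT 2 alone, whose low values chose the genes, so no test is given for it.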
